A study of Mus musculus with 6 samples.

Results

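The insulin-like growth factor (IGF) family described here comprises 10 genes of the 49548 in the count table, defined by their symbols: the ligands Igf1 and Igf2, the receptors Igf1r and Igf2r, and the binding proteins Igfbp2, Igfbp3, Igfbp4, Igfbp5, Igfbp6 and Igfbp7. All 10 were found in the table and 9 had enough reads to be tested. They were measured by poly(A) RNA-sequencing in native cardiac fibroblasts (CFs), the cells obtained fresh from the heart by enzymatic dissociation and magnetic depletion of hematopoietic lineages. The groups were 3 WT and 3 CharmeKO libraries from C57BL/6J mice aged 5 weeks, and the CharmeKO mice carry a polyadenylation signal inserted into the locus of the long non-coding RNA Charme. No sort on a fibroblast marker is described, so the libraries can hold other non-cardiomyocyte cells of the heart. The labels number the libraries 1 to 3 in each group and name no animal, so p-values measure the spread between these libraries.

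IGF1 and IGF2 are small secreted proteins related to insulin. They act mainly through the IGF1 receptor, a tyrosine kinase that feeds the PI3K/Akt and MAPK pathways, whereas the IGF2 receptor, which also binds mannose 6-phosphate, takes IGF2 up for degradation and does not signal in the same way. In the extracellular space most IGF is held by IGF binding proteins (IGFBPs), which lengthen its life and limit or direct its access to the receptor, and which proteases cut to release it. In the heart, fibroblasts and other stromal cells are a known source of IGF1, and the pathway supports cardiomyocyte growth and survival.

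The libraries held between 9595701 counts (WT replicate 3) and 42101393 counts (WT replicate 1). Charme, the targeted transcript, had 26, 15 and 4 counts in WT and 7, 0 and 0 counts in CharmeKO replicates 1, 2 and 3, and counts of 3 or fewer are read as not detected. Levels are given as CPM, the depth-scaled count after TMM normalization. The fibroblast markers Col1a1, Pdgfra and Dcn were present in all libraries, but so were the endothelial markers Pecam1, Cdh5 and Kdr, and the 8 endothelial markers summed to between 5698 and 7094 CPM over the 6 libraries. In such bulk samples, fewer cells of a type and less RNA per cell cannot be told apart.

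Native CFs carried mRNA of every member but Igfbp2, most of it for binding proteins and least for Igf1 and Igf1r. Genes were set beside one another as CPM per kb of exon, where the length counts all annotated exons of a gene. Which transcripts were expressed was not measured, so the order of genes and the ratios between them depend on this length. On that scale Igfbp7 led with a mean of 1379 over the 6 libraries and a range from 1127 to 1556. Igfbp4 followed at 189.7 (157 to 209) and Igfbp6 at 141 (116 to 165), and their ranges overlapped, although Igfbp4 was the higher of the pair in each of the 6 libraries. Igfbp7 encodes a protein with only low affinity for IGFs, while IGFBP4 and IGFBP6 bind them tightly, IGFBP6 with a preference for IGF2.

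Igfbp3, at 88.4 CPM per kb (53.7 to 114), and the ligand Igf2, at 86.3 (73.6 to 108), had no common order over the 6 libraries. Igf2 was the higher of the pair in the 3 WT libraries and Igfbp3 in the 3 CharmeKO libraries. This split by group was not tested and depends on the exon lengths used. Igfbp5 was at 64.4 CPM per kb (56.0 to 72.4) and Igf2r at 44.7 (39.1 to 51.1), and the latter range touched no other. Igfbp5 lay below Igf2 in every library, but its range fell within that of Igfbp3, which was the lower of the pair in WT replicates 1 and 3. At the low end, Igf1 at 7.73 CPM per kb (6.25 to 9.35) and Igf1r at 6.71 (6.05 to 7.18) had overlapping ranges. Within a library the level per kb of Igf2 was 9.21 to 17.3 times that of Igf1, and that of Igf2r was 5.81 to 7.26 times that of Igf1r. The ratio of the summed binding proteins to the summed ligands per kb was 15.4 to 25.04. Most of its numerator was Igfbp7, of low affinity for IGFs, at 70.4% to 76.9% of the binding protein sum per kb. The WT libraries averaged 18.5 ± 2.74 (SD, n = 3) for that ratio and the CharmeKO libraries 21.8 ± 2.92 (SD, n = 3), which overlapped and were not tested.

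**Figure D1:**
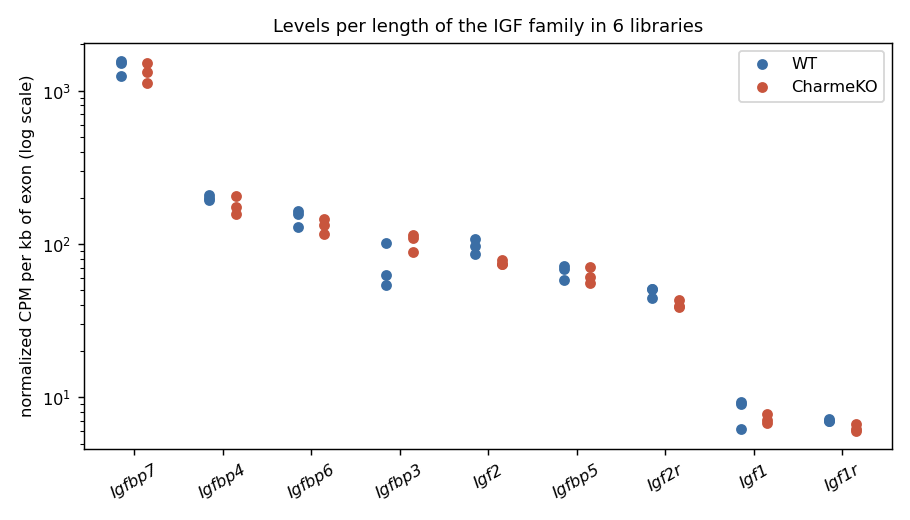
Level of each of the 9 tested genes as normalized CPM per kb of exon on a log axis, with 1 point per library, WT to the left and CharmeKO to the right of each gene. Igfbp7 stands at 1127 to 1556 in every library, and Igf1 and Igf1r share the lowest position.

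Igfbp2 had 2 counts in WT replicate 2, 1 count in WT replicate 3 and 0 in the other 4 libraries, at or under the limit of 3 counts in all of them, and was not tested. In the RefSeq gene order on GRCm38.p6, Igfbp2 lies next to Igfbp5 on chromosome 1, and the latter gene had between 3823 and 18482 counts per library. The second such pair is Igfbp1 and Igfbp3 on chromosome 11. Igfbp1, a liver-borne binding protein under insulin control that is no member of the set, had 0 counts in all 6 libraries, beside 1563 to 10225 counts for Igfbp3. Thus only 1 gene of each neighbouring pair was detected at this depth.

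The comparison of CharmeKO with WT asked whether the supply and reception of IGF signals differ in CFs of CharmeKO mice. None of the 9 tested genes passed an adjusted p of 0.05 in edgeR's quasi-likelihood test, where 0.83% of all 15789 tested genes did (0.412% lower and 0.418% higher in CharmeKO), and 0 passed in DESeq2, where 2.5% of all tested genes did. At an unadjusted p under 0.05 in edgeR, 2 of the 9 genes remained, Igf2 with a lower and Igfbp3 with a higher mean in CharmeKO, against 12.8% of all tested genes. The estimate was below 0 for 8 of the 9 genes, against 48.8% of all tested genes, and the median of the log2 fold changes was −0.16 for the 9 genes and 0.0096 for all tested genes. When the library totals were used without TMM, a scaling added after the data were seen, the estimate was still below 0 for the same 8 genes, but their values shrank (median over the 9, −0.090) while the median of all tested genes moved to 0.087.

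Igf2, the ligand most active before birth and expressed from the paternal allele, was at 493, 620.1 and 556 CPM in WT replicates 1, 2 and 3 and at 449, 426 and 421 CPM in CharmeKO replicates 1, 2 and 3. Every CharmeKO library was below every WT library. The means were 556 ± 63.6 CPM (SD, n = 3) and 432 ± 14.8 CPM (SD, n = 3), a log2 fold change of −0.37 (SE 0.13, 95% interval −0.65 to −0.084, adjusted p = 0.269 in edgeR). The adjusted p from DESeq2 was 0.0802, and in the 6 fits that each lacked 1 library the estimate stayed between −0.44 and −0.28 on the log2 scale. Epicardial markers, which belong to a cell layer known to express Igf2 during development, summed to 58.0 to 75.1 CPM in WT and to 34.0 to 41.4 CPM in CharmeKO over a list of 7 genes, of which Wt1 was called lower by both tools. Wt1 made up most of each sum, at 52.5, 53.6 and 46.2 CPM in WT and 33.3, 31.2 and 32.3 CPM in CharmeKO. Upk3b, Msln, Upk1b and Krt19 overlapped between the groups, Lrrn4 was lower in all CharmeKO libraries, and Bnc1 was not tested. Of the 3 defining markers of that list, Wt1 was found in every library, and Upk3b and Msln were at 0 in CharmeKO replicate 1. The part of these markers in the level of Igf2 was not tested.

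Igf1, the main growth hormone-dependent ligand of postnatal life, was at 92.6, 61.9 and 90.3 CPM in WT and at 70.7, 77.0 and 67.0 CPM in CharmeKO, in the order of the replicate numbers. The groups overlapped, because WT replicate 2 was below all 3 CharmeKO libraries. The log2 fold change was −0.19 (SE 0.15, 95% interval −0.52 to 0.14, adjusted p = 0.656 in edgeR), and it moved to −0.36 without WT replicate 2 (adjusted p = 0.144 in edgeR), to −0.080 without WT replicate 1 and to −0.11 without WT replicate 3. Macrophages are another known source of Igf1. The leukocyte markers Ptprc, Csf1r and C1qa were low but present in all libraries, and the list of 8 leukocyte genes summed to 28.6 to 53.5 CPM in WT and 38.6 to 50.9 CPM in CharmeKO, with 0 called by either tool. Csf1r, a receptor that marks macrophages, was at 1.94 to 2.47 CPM in WT and 0.559 to 1.84 CPM in CharmeKO, and C1qa at 0.913 to 1.76 and 0.314 to 0.859 CPM, so neither overlapped between the groups, but neither passed the test. Of the 7 tested leukocyte genes 4 had estimates above 0, Lyz2 (0.57), Ptprc (0.25), Adgre1 (0.094) and Cd79a (0.013), and 3 below 0, Csf1r (−0.78), C1qa (−1.01) and Cd68 (−0.18). Their part in the level of Igf1 was not tested.

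Igf1r, the signalling receptor, varied least of the 9 genes, with the highest library at 1.19 times the lowest. It was at 118, 121 and 117 CPM in WT and at 113, 105.1 and 101.6 CPM in CharmeKO. The groups did not overlap with TMM, DESeq2 or upper-quartile scaling but did overlap when only library totals were used. The log2 fold change was −0.16 (SE 0.10, 95% interval −0.39 to 0.074, adjusted p = 0.578 in edgeR).

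Igf2r, the clearance receptor, which in mice is expressed from the maternal allele, was at 415, 476 and 471 CPM in WT and at 364, 367 and 404 CPM in CharmeKO. All CharmeKO libraries were below all WT libraries under each of the 4 scalings. The log2 fold change was −0.26 (SE 0.12, 95% interval −0.53 to 0.0035, adjusted p = 0.400 in edgeR). Igf2, Igf1r and Igf2r were thus the 3 of 9 genes whose groups did not overlap, all with CharmeKO lower, and 18.2% of all tested genes had groups that did not overlap, 8.59% with CharmeKO lower and 9.57% with CharmeKO higher.

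Among the binding proteins, Igfbp3 was the exception in direction and the most variable, with the highest library at 2.12 times the lowest. IGFBP3 is the main carrier of IGFs in blood, in a complex with the acid-labile subunit. It was at 198, 315 and 168 CPM in WT and at 357, 344 and 278 CPM in CharmeKO. WT replicates 1 and 3 lay below all CharmeKO libraries, while WT replicate 2 lay above CharmeKO replicate 3. The means of 227 ± 77.9 CPM (SD, n = 3) and 326 ± 42.3 CPM (SD, n = 3) gave a log2 fold change of 0.52 (SE 0.21, 95% interval 0.065 to 0.98, adjusted p = 0.322 in edgeR, 0.173 in DESeq2). The call depended on 1 library and on the gene filter: without WT replicate 2 the log2 fold change was 0.83 and passed the threshold (adjusted p = 0.0120 in edgeR), without WT replicate 3 it was 0.35 (adjusted p = 0.672 in edgeR), and with no filter on low counts it was 0.53 (adjusted p = 0.0128 in edgeR).

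The other 4 tested binding proteins had overlapping groups and estimates closer to 0. Igfbp4, an inhibitor of IGF action that the protease PAPP-A cuts, was at 851, 884 and 921 CPM in WT and at 765, 692 and 914 CPM in CharmeKO, a log2 fold change of −0.16 (95% interval −0.47 to 0.14, adjusted p = 0.677 in edgeR). Igfbp7 was at 1839, 1503 and 1881 CPM in WT and at 1589, 1363 and 1831 CPM in CharmeKO, a log2 fold change of −0.13 (95% interval −0.46 to 0.21, adjusted p = 0.791 in edgeR). In both genes CharmeKO replicate 3 lay within the range of the WT libraries and CharmeKO replicate 2 was the lowest of the 6. Without CharmeKO replicate 2 the estimates shrank to −0.074 for Igfbp4 and −0.024 for Igfbp7, and without CharmeKO replicate 3 they were −0.28 and −0.24.

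Igfbp6 was at 144, 183 and 175 CPM in WT and at 129, 148 and 163 CPM in CharmeKO, a log2 fold change of −0.19 (95% interval −0.49 to 0.10, adjusted p = 0.599 in edgeR). Igfbp5, which binds the matrix and is common in stromal and mural cells, was at 435, 348 and 411 CPM in WT and at 364, 425 and 336 CPM in CharmeKO, a log2 fold change of −0.085 (95% interval −0.39 to 0.22, adjusted p = 0.849 in edgeR). The values of Igfbp5 were interleaved between the groups, and its estimate was −0.0084 when library totals replaced TMM and −0.18 to −0.013 with 1 library left out (without CharmeKO replicates 2 and 3). For Igfbp6 the estimates with 1 library left out ran from −0.29 (without WT replicate 1) to −0.11 (without CharmeKO replicate 1).

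**Figure D2:**
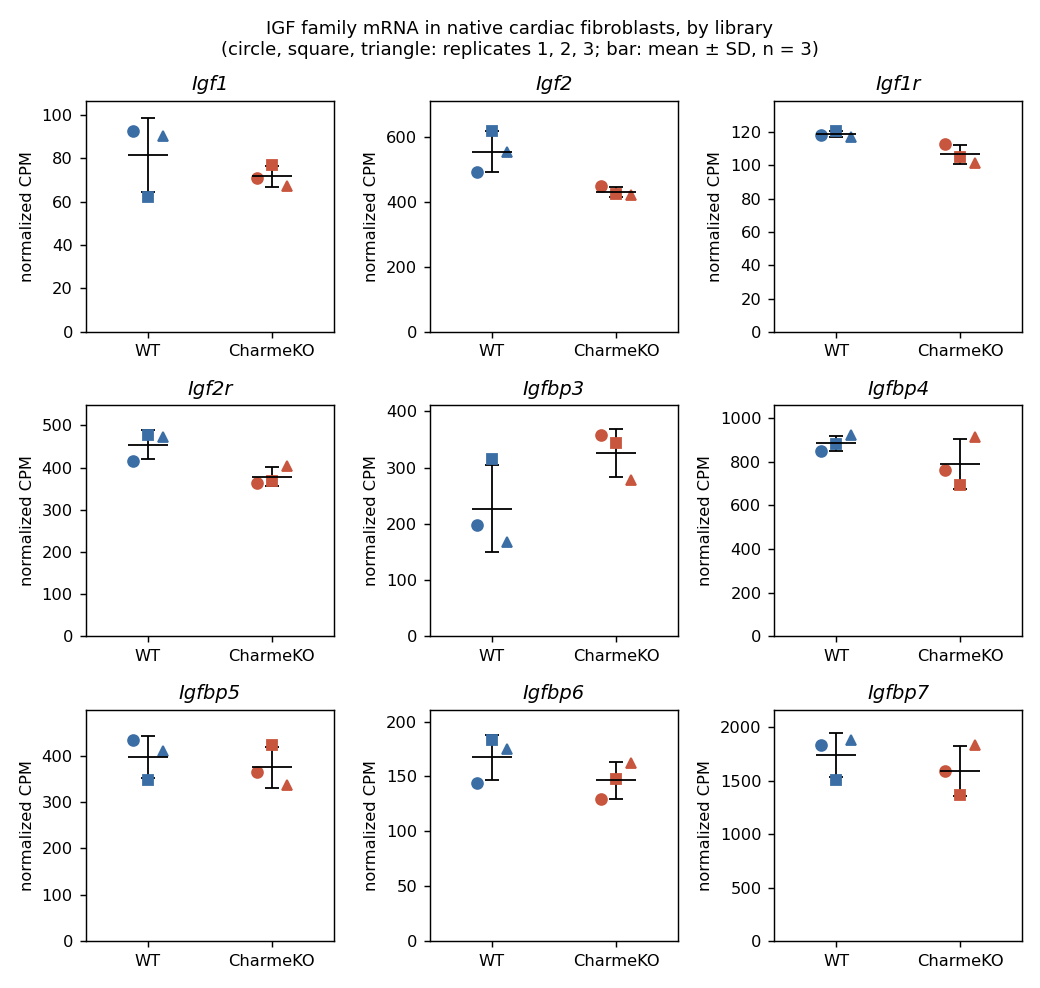
Normalized CPM of the 9 tested genes in each library on linear axes that start at 0, with the mean and SD of each group (n = 3). The CharmeKO points of Igf2, Igf1r and Igf2r lie below all WT points, while those of Igfbp3 lie above WT replicates 1 and 3 but not all above WT replicate 2.

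**Figure D3:**
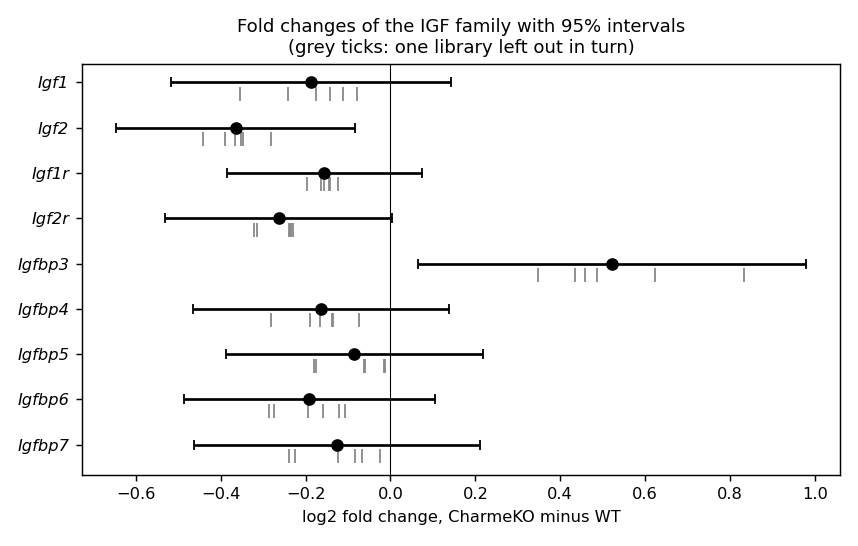
Log2 fold change of CharmeKO against WT for each tested gene, with its 95% interval from the edgeR fit, and the estimates with each library left out as grey ticks. The interval lies apart from 0 for Igf2 (−0.65 to −0.084) and Igfbp3 (0.065 to 0.98), although neither passed the adjusted threshold.

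Because all members are secreted or membrane proteins that act in a balance, pairs were also compared as log2 ratios of counts within a library, which do not depend on scaling. Of 5 pairs, none had groups that did not overlap. The ratio of Igfbp3 to Igfbp5, the 2 binding proteins that join the acid-labile subunit, averaged −0.86 ± 0.62 (SD, n = 3) over the WT and −0.20 ± 0.15 (SD, n = 3) over the CharmeKO libraries, a difference of 0.65 (two-sided exact permutation test, p = 0.3, adjusted p = 1 over the 5 pairs). WT replicate 2 was at −0.14 and the other WT libraries at −1.14 and −1.29, whereas the CharmeKO libraries were between −0.30 and −0.029. The ratio of Igf1r to Igf2r differed by 0.11 (exact permutation p = 0.4), that of Igf1 to Igf2 by 0.19 (exact permutation p = 0.9), that of Igf1 to Igfbp4 by 0.0048 and that of Igf1 to Igf1r by −0.011 (exact permutation p = 1 for both). With 3 libraries in each group this test cannot give a p under 0.1. Leaving out WT replicate 2 turned the difference of Igf1 to Igf2 to −0.077 and moved that of Igfbp3 to Igfbp5 to 1.01, which was 0.44 without WT replicate 3.

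The 6 binding protein genes together made up 0.304% to 0.350% of the reads of a library. Their summed level averaged 3419 ± 167 CPM (SD, n = 3) over the WT and 3233 ± 277 CPM (SD, n = 3) over the CharmeKO libraries, and the groups overlapped. The difference of −186 CPM became −55.4 CPM without CharmeKO replicate 2, −117 CPM without WT replicate 3 and −331 CPM without CharmeKO replicate 3. Within that sum the share of Igfbp3 was 5.70%, 9.76% and 4.73% in WT and 11.1%, 11.6% and 7.90% in CharmeKO, so WT replicate 2 was again nearer to the CharmeKO libraries. The share of Igfbp7 lay between 45.9% and 53.0% in all 6 libraries, and that of Igfbp4 between 23.3% and 27.3%. Per kb of exon, Igfbp7 held 74.4% ± 3.56 (SD, n = 3) of the sum in WT, against 73.2% ± 2.40 (SD, n = 3) for CharmeKO.

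**Figure D4:**
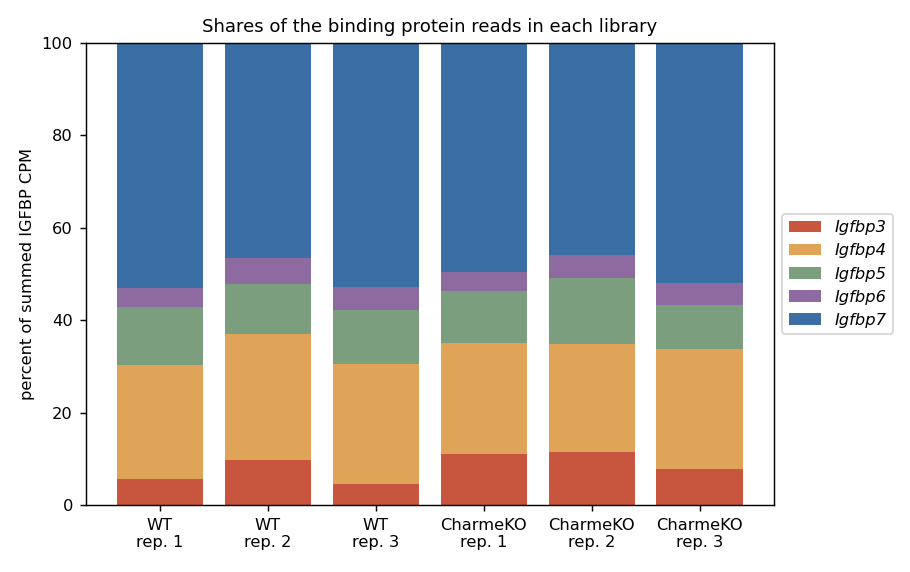
Share of each binding protein gene in the summed IGFBP CPM of each library, in percent and without Igfbp2, which had at most 2 counts. Igfbp3 takes 4.73% to 9.76% in WT and 7.90% to 11.6% in CharmeKO, and Igfbp7 takes the largest share in every library.

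The start regions of these genes differ in letters. The table of RefSeq promoters on GRCm38.p6, another build than the GRCm39 stated for the counts, held all 10 genes with 14 starts. Of these starts 4 were for Igf2, and gene counts cannot distinguish among them. The 100 bases before the start are shown for the receptors and for 2 starts of Igf2, whose groups did not overlap, for Igfbp3, whose estimate had the opposite sign, and for Igfbp7, the most abundant per kb. Capitals mark GC boxes, searched as GGGCGG on either strand (CCGCCC when reversed), which may overlap one another and occurred in 24.7% of the 32851 promoter windows of the same length.
Igf1r, chr7:67952157-67952256, plus strand: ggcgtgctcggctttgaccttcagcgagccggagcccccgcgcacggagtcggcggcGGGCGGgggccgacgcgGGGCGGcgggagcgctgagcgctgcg
Igf2r, chr17:12769707-12769806, minus strand: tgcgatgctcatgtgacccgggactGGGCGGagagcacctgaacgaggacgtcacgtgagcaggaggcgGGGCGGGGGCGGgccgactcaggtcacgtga
Igf2, the third start, chr7:142658805-142658904, minus strand: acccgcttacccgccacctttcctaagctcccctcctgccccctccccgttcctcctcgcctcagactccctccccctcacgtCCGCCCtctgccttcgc
Igf2, the fourth start, chr7:142657497-142657596, minus strand: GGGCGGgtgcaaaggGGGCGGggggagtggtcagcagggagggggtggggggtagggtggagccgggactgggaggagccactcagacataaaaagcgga
Igfbp3, chr11:7213924-7214023, minus strand: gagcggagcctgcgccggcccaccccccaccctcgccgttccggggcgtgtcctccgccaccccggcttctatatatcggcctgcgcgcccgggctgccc
Igfbp7, chr5:77408046-77408145, minus strand: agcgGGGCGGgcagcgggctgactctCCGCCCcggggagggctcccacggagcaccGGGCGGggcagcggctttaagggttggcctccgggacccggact
The windows of Igf1r and Igf2r held 2 and 3 GC boxes at 81% and 69% G or C, with 19 and 11 CpG. That of Igfbp7 held 3 and that of Igfbp3 held 0 at 77% G or C. The 2 windows of Igf2 shown held 1 and 2, and they are the only ones of its 4 with a GC box, since the windows of the first and the second start held 0. No window shown held TATAAA (5.56% of all windows) or CCAAT (18.9%) on either strand, and among the members not shown TATAAA occurred before Igfbp4 and CCAAT before Igfbp6. A match describes these letters and is no evidence of binding.

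The genes around the family were taken as 2 lists. The first, here called the supply list, holds 32 genes that bind, cut, carry, clear or set the supply of IGFs or IGFBPs, or encode IGFBP-related proteins. Of its 27 tested genes, 0 were called in either direction by edgeR, 2 had an unadjusted p under 0.05 with a higher and 4 with a lower level in CharmeKO (22.2% in all, against 12.8% of all tested genes), and the median log2 fold change was −0.12, against 0.0096 over all tested genes. Mmp2, a matrix metalloproteinase that can cut several IGFBPs, was at 1266, 1770.3 and 1608 CPM in WT and at 898, 877 and 1158 CPM in CharmeKO, which gave −0.66 ± 0.17 (SE) as log2 fold change (adjusted p = 0.123 in edgeR and 0.00227 in DESeq2). Lrp1, an endocytic receptor reported to bind IGFBP3, was at 4138, 4956 and 4618 CPM in WT and at 2861, 3041 and 3550.3 CPM in CharmeKO, which gave −0.54 ± 0.15 (SE) as log2 fold change (adjusted p = 0.157 in edgeR and 0.00283 in DESeq2). Both genes had groups that did not overlap, and DESeq2 called only these 2 of the list, where it called 2.5% of all tested genes. Ghr, the growth hormone receptor upstream of Igf1, was at 58.9, 53.9 and 50.8 CPM in WT and at 72.4, 67.0 and 69.9 CPM in CharmeKO, which gave 0.35 ± 0.11 (SE) as log2 fold change (adjusted p = 0.198 in edgeR and 0.153 in DESeq2). In all, 2 supply genes, Mmp2 and Lrp1, had all CharmeKO libraries lower and 3, Ghr, Esm1 and Ccn3, had all of them higher, against 18.2% of all tested genes without overlap.

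Of the supply genes, 5 were under the count filter, among them Igfals, which encodes the acid-labile subunit and had 0 to 16 counts per library, and Igfbp1. The protease gene Pappa had a log2 fold change of −0.48 (adjusted p = 0.579 in edgeR) at 2.21 to 5.52 CPM over the 6 libraries. Of the imprinted neighbours of the family, H19, the maternally expressed RNA beside Igf2, was at 95.8, 130 and 94.6 CPM in WT and at 66.2, 96.3 and 90.6 CPM in CharmeKO (log2 fold change −0.34, adjusted p = 0.421 in edgeR). Airn, the antisense RNA that starts within Igf2r, had a log2 fold change of 0.084 (adjusted p = 0.905 in edgeR), and the counting used the strand.

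The second list holds 46 genes of receptor signalling, of which 45 were tested and 0 were called by edgeR, with 1 higher and 4 lower at an unadjusted p under 0.05 (11.1% in all, against 12.8% of all tested genes) and a median log2 fold change of 0.011. Kinases of the PI3K/Akt branch were near 0, such as Akt1 (−0.054) and Pik3ca (0.025). Irs2, an adaptor that docks to the insulin and IGF1 receptors, was at 240.4, 305 and 309 CPM in WT and at 202, 163 and 225 CPM in CharmeKO, which gave −0.53 ± 0.15 (SE) as log2 fold change (adjusted p = 0.179 in edgeR and 0.0258 in DESeq2). Foxo3, a transcription factor that Akt keeps out of the nucleus, was at 110.01, 171 and 147 CPM in WT and at 76.3, 99.7 and 108 CPM in CharmeKO, which gave −0.59 ± 0.17 (SE) as log2 fold change (adjusted p = 0.191 in edgeR and 0.0417 in DESeq2). The values of Irs2 and Foxo3 did not overlap between the groups, as in 8 of the 45 genes (6 with CharmeKO lower, 2 higher), against 18.2% of all tested genes. Irs2 and Foxo3 were the 2 genes of the list that DESeq2 called, against 2.5% of all tested genes. Tsc2, a brake on mTOR, followed at −0.34 ± 0.12 (SE) as log2 fold change (adjusted p = 0.262 in edgeR and 0.151 in DESeq2). Insr, the insulin receptor, had a log2 fold change of 0.19 (adjusted p = 0.600 in edgeR).

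**Figure D5:**
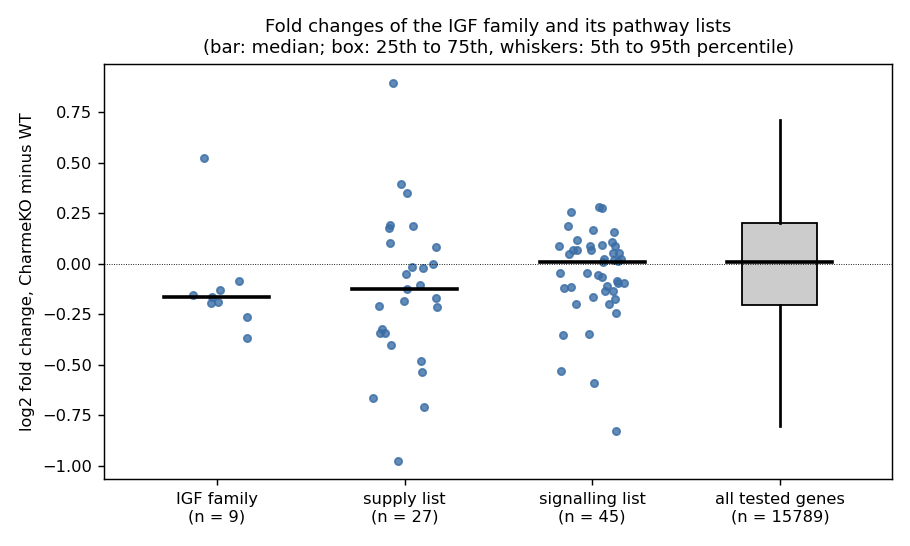
Log2 fold changes of CharmeKO against WT for the 9 tested family genes, the 27 tested supply genes, the 45 tested signalling genes and, as a box, all 15789 tested genes. The medians are −0.16, −0.12, 0.011 and 0.0096.

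To place the family among other genes, the genes most alike in profile were ranked by Pearson correlation of log2(CPM + 1) over the 6 libraries, among 8913 candidates with a mean of at least 10 CPM. The best match reached r = 0.997 for Igf2r (Pkd1) and for Igfbp4 (Hhipl1), 0.996 for Igfbp7 (Ggcx), 0.992 for Igfbp3 (Eif2b4) and Igfbp5 (Hipk2), and 0.990 for Igf1 (Cnot6). It was 0.989 for Igf2 (Ccnl1), 0.987 for Igfbp6 (Sema7a) and 0.986 for Igf1r (Cacna1h). Mmp2 of the supply list was the third best match of Igf2r at 0.994. These are the highest of 8913 values per gene over 6 libraries that share their depth and scaling, and they are given as a description.

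Markers of other cells differed between the groups in some lists. The 8 cardiomyocyte genes summed to 251 to 325 CPM in WT and 372 to 573 CPM in CharmeKO, with Myh6, Tnnt2 and Tnni3 present in all libraries and 2 of the 8, Myh6 and Tnni3, called higher by edgeR. DESeq2 called 5 of them higher, these 2 with Tnnt2, Myl2 and Pln. The lists of 8 fibroblast genes (31249 to 37770 CPM in WT, 29724 to 34796 CPM in CharmeKO), 8 endothelial genes (5698 to 6957, 5863 to 7094) and 7 mural genes (2127 to 2476, 2143 to 2492) overlapped between the groups, with 0 genes called by edgeR. DESeq2 called 1 fibroblast gene, Col1a1 (−0.77, adjusted p = 0.0102 in DESeq2), and 1 mural gene, Cspg4 (−0.57, adjusted p = 0.0158 in DESeq2), lower, the values before each p being log2 fold changes of edgeR. The sums also overlapped, with 0 genes called by either tool, for 5 erythroid genes (26774 to 39207 and 24411 to 31742 CPM), 3 lymphatic endothelial genes (49.9 to 76.6 and 74.2 to 90.9) and 4 Schwann cell genes (7.12 to 7.61 and 6.26 to 8.56). Of 8 dissociation response genes, Hspa1a was called higher by both tools and the sums overlapped (22653 to 33691 and 26631 to 29595 CPM). The part of these markers in the levels of the IGF family was not tested.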

How the data were processed

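mRNA of native CFs was measured in 6 libraries, 3 WT and 3 CharmeKO, all used. The authors aligned Q30-filtered reads with STAR to an assembly given as GRCm39 (GMCm39 in the paper). They state an Ensembl release 87 annotation, with Charme added, for the counts per gene. That release predates GRCm39, so the build of the annotation is uncertain. The authors kept the reverse-strand setting and deposited raw counts without normalization or gene filter. A gene was tested where 2 or more libraries held 10 or more counts of it; counts were normalized by TMM and groups compared by the quasi-likelihood test of edgeR 4.0.16 in R 4.3.3 with Benjamini-Hochberg adjustment (threshold 0.05). Standard errors and 95% intervals were derived from its F statistics. The test was checked on simulated counts.

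Exon lengths came from GENCODE M21 (GRCm38), joined by Ensembl identifier, which covered 15764 of the tested genes. Promoter sequences came from RefSeq on GRCm38.p6. Pair ratios were compared by exact permutation tests. Marker lists were summed as CPM. Depth ranged from 9595701 to 42101393 counts, and the limit behind a count of 0, taken as 3 counts, equals 0.0713 to 0.313 CPM of the library total and covers counting error only. Genes named are all members, the 3 genes of each pathway list with the lowest p, the 3 genes most alike to each member (the best one is printed) and markers of each cell type; other list genes were picked after their values were seen. Members and lists were chosen with earlier results of these data known. No duplicate library was found. The alternatives were DESeq2 1.42.0, other scalings and filters, the replicate number as a block and each library left out. Figures were drawn with matplotlib 3.10.9. Some genes of the lists are not reported here.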

Additional observations from a re-analysis of the deposited data

How the results depend on the processing

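No tested member changed direction under any alternative run, and of the 9 only Igfbp3 crossed the threshold. The number of members called was 0 under DESeq2, DESeq2's size factors, upper-quartile scaling, library totals, the stricter filter and the replicate block, 1 (Igfbp3) with no gene filter, and 0 to 1 with each library left out, where the 1 came without WT replicate 2. Of the supply list, DESeq2 called 2 genes, no filter 4, and the fits without 1 library 0 to 1 (Adam12, without WT replicate 2), and of the signalling list DESeq2 called 2, no filter 2, and the fits without 1 library 0. With the replicate block, 2 supply genes (Mmp2 and Stc2) and 1 signalling gene (Foxo3) passed, but the labels do not say that same-numbered libraries are pairs. Deviations from the group means correlated at 0.22, 0.053 and 0.16 for same-numbered libraries of the 2 groups. For differently numbered libraries these correlations lay between −0.22 and 0.039. Whether same-numbered libraries share a batch or a litter was not tested. Over all genes, edgeR called 131, the block 302, DESeq2 394, no filter 699, and the fits without 1 library 61 to 349. Without 1 library the differences in pair ratios ranged from −0.077 to 0.38 for Igf1 to Igf2, −0.18 to 0.16 for Igf1 to Igfbp4 and −0.21 to 0.095 for Igf1 to Igf1r, so the direction of these 3 was not stable. The summed IGFBP level was lower in CharmeKO by a mean difference of −186 CPM with TMM and −14.8 CPM with library totals, and −331 to −55.4 CPM with 1 library left out. Library totals moved the share of higher among the called genes to 75 of 122, from 66 of 131, while the balance turned to lower under DESeq2 (154 higher, 240 lower), the block (115 and 187) and no filter (253 and 446). The causes of these shifts were not tested. WT replicate 3, with the fewest counts, still had 839 counts of Igf1, the lowest of the tested members there, so each of the 9 was well above the count filter in every library.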
